A study of Mus musculus with 12 samples.

Results

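The genes described here act in antigen presentation by MHC class I molecules and in the interferon response: B2m, H2-K1, Tap1, Psmb8, Psmb9, Irf1, Irf7, Oas1a and Sting1 (the gene that older annotation calls Tmem173). They were chosen by name, with earlier results of these data known, so their counts are descriptions and not those of a blind choice. All probe sets that the annotation of the Mouse430_2 array gives to these 9 genes and to no other symbol were taken, which made 18 of the 45037 probe sets that are not manufacturer's controls. A mean signal under 100 over the 12 arrays counted as low. By that rule 10 probe sets in 6 genes were tested and 8 were low, and Psmb8, Psmb9 and Irf7 were low with every probe set. Another 2 probe sets are shared between a member and another class I symbol and were not used.

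The arrays measured RNA of 12 fibroblast cultures. The cells were primary fibroblasts of e14.5 mouse embryos, kept as 6 lines, with 1 array for each line at each oxygen level. Control lines carried 1 conditional knockout (floxed) allele beside wild-type alleles: CBP+/flox in line flox1 and p300 +/flox in lines flox2_1 and flox2_2, where CBP is the product of Crebbp and p300 that of Ep300. In the triCH1 lines 3 of the 4 alleles lacked the CH1 domain, a protein interaction domain of both coactivators, and the remaining allele was floxed. Line triCH1flox1 was CBP CH1/flox;p300 CH1/CH1, and lines triCH1flox2_1 and triCH1flox2_2 were CBP CH1/CH1;p300 CH1/flox. Every line, controls included, had received Cre recombinase, which deletes floxed alleles, by adenovirus at passage 3. All lines had then expanded at least 100 fold, so no line was untouched by virus or Cre. The genotypes above still name that allele as floxed, and how completely it was lost was not examined here. Cultures were held for 6 h at 21% O2 (normoxia) or 0.1% O2 (hypoxia), at 37 °C with 5% CO2, which gave 3 arrays for each line type at each oxygen level. No culture was treated with an interferon according to the labels, so the values are levels without added interferon. The labels do not say whether lines of the same genotype came from different embryos, and p-values therefore measure the spread between these lines.

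Peptides shown to cytotoxic T cells are cut by the proteasome, pumped into the endoplasmic reticulum and loaded onto MHC class I molecules. Psmb8 and Psmb9 are catalytic subunits that replace constitutive ones to form the immunoproteasome, Tap1 is a subunit of the peptide transporter TAP, H2-K1 is a class I heavy chain, and B2m is the invariant light chain that all classical heavy chains need. Interferons raise these genes in many cell types, fibroblasts included. Irf1 and Irf7 are transcription factors of that response, Sting1 is the endoplasmic reticulum adaptor through which cytosolic DNA, sensed by cGAS, leads to type I interferon, and Oas1a is an oligoadenylate synthetase of the antiviral response. CBP and p300 are histone acetyltransferases and are known coactivators of STAT and IRF factors.

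The DNA around the start sites is shown because interferon acts on several of these genes through short elements there. For 8 of the 9 genes, all but Sting1, windows from 250 bases before to 50 bases after the start were taken from RefSeq (assembly GRCm38.p6). They were searched on both strands for the core of the interferon-stimulated response element, GAAANNGAAA (TTTCNNTTTC on the other strand), and for the gamma activated site bound by STAT dimers, TTCNNNGAA, which reads the same on both strands. Of 32851 windows in the table, 3.44% held the first motif and 8.3% the second. Capitals mark a match, and each sequence runs 5′ to 3′ on the strand of its gene. The Oas1a window (chr5:120907476-120907775, minus strand) held a gamma activated site at bases -98 to -90 from the start and 2 response element cores at -20 to -11 and -14 to -5 that overlap each other. The B2m window (chr2:122147437-122147736, plus strand) held a response element core at -139 to -130. Gamma activated sites stood at -90 to -82 in the window of the upstream Irf1 start (chr11:53769764-53770063, plus strand) and at -97 to -89 in that of Psmb8 (chr17:34197945-34198244, plus strand). The Tap1 window (chr17:34187306-34187605, plus strand) is shown because Psmb9 starts from the same stretch in the opposite direction (chr17:34187281-34187580, minus strand), and the windows share 275 bases; neither motif matched there. The windows of H2-K1 and Irf7 had no match either. A match is a stretch of letters and not a measured binding site.
Oas1a: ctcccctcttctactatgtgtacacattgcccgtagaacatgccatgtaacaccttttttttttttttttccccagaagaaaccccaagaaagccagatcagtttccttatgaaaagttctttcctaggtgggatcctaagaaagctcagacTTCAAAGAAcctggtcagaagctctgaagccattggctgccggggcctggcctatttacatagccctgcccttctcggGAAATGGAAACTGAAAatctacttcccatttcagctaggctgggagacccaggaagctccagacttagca
B2m: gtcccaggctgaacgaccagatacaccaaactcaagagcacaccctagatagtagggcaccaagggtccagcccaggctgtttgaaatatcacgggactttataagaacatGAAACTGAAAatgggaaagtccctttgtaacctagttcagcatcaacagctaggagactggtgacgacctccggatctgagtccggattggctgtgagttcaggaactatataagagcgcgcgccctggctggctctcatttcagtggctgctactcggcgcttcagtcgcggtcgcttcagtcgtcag
Irf1: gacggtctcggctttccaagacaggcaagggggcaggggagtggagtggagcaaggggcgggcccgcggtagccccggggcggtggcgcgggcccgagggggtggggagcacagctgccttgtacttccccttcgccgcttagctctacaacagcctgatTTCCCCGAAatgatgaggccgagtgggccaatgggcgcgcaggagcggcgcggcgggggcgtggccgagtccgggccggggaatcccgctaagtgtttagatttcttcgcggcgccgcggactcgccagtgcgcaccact
Psmb8: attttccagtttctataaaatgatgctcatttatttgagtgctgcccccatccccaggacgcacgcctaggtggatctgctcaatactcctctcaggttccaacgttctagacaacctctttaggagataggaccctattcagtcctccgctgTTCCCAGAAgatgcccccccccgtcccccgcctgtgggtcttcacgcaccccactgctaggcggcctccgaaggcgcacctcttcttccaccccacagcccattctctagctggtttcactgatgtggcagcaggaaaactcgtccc
Tap1: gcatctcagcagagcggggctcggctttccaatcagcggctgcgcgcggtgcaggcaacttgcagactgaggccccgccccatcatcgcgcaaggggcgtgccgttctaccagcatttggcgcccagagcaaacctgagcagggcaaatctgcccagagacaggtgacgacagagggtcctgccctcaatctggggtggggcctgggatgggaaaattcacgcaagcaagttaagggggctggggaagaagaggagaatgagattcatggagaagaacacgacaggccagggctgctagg

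Signals are the authors' values on a linear scale, with each array scaled to a target of 500. Array medians lay between 57.2 and 76.1, and the pairwise Pearson r of log2 signals lay between 0.94 and 0.96. The scaling factor was 2.57 for the normoxic array of flox2_1 and 3.35 to 4.28 for the others. That array also had the highest background, 72.99, close to the 71.3 of flox1 in hypoxia. The hypoxia target Bnip3 gave 485.6 to 910.4 in normoxia and 12324 to 16903 in hypoxia, so each array matched its oxygen label. Crebbp (1435224_at) gave 698.7 to 882.2 in lines with a floxed Crebbp allele and 922.2 to 1852 in lines with a floxed Ep300 allele. Ep300 (1434765_at) overlapped between these lines, at 412.3 to 836.4 and 206.7 to 539.5, and where either probe set lies relative to the floxed or CH1 part was not examined. All 10 fibroblast markers had a mean of at least 100, among them collagen genes and Vim. Single arrays ranged from 35594 to 50587 for Vim. They ranged from 14.7 to 774.8 for Pdgfra, 12.1 to 856.2 for Dcn and 104.7 to 4269 for Lum, named after their values were seen. Of 13 leukocyte markers 4 reached that mean (Cd14, Csf1r, Cd68 and Lyz2), while the defining marker Ptprc (CD45) had a mean of 21.1. Of 6 endothelial markers 0 reached 100, and of 6 epithelial markers 2 did, Krt18 and Epcam. In bulk RNA, fewer cells of a type and less RNA per cell cannot be told apart.

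Between line types the genes fell into 3 kinds of pattern. B2m gave nearly the same signal in all lines. By the brightest probe set of each gene, H2-K1, Tap1, Psmb8, Oas1a and Sting1 had triCH1 line means above the control line means. A line mean averages the 2 oxygen levels of a line. Irf1, Irf7 and Psmb9 overlapped. Some other probe sets of H2-K1, Tap1 and Psmb8 overlapped too. Differences are given on a log2(signal + 20) scale, which understates those of low signals. None passed the test across all probe sets: limma called 0 of 10 member probe sets at a Benjamini-Hochberg adjusted p under 0.05 on line means, where 0% of all 18903 tested probe sets were called. At an unadjusted p under 0.05 the same fit had 6 of 10 member probe sets higher in triCH1 lines (in H2-K1, Tap1, Oas1a and Sting1) and 0 lower, against 5.13% of all tested probe sets higher. The line means did not overlap, with triCH1 above control, in those same 6 probe sets, against 8.02% of all. The 6 probe sets are of 4 genes, and probe sets of 1 gene share its transcripts. Tap1 (1416016_at) and Oas1a (1424775_at) averaged 68.2 and 62.5 in control against 135 and 186 in triCH1 cultures, so they passed the filter only through the triCH1 lines, and the filter favours the direction they show. With a mean of at least 100 required in each line type, a rule added after the data were seen, 8 member probe sets were left. Of these, 4 (2 of H2-K1 and both of Sting1) were higher at an unadjusted p under 0.05, against 4.99% of all, and the line means of the same 4 did not overlap, against 7.87%.

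**Figure D1:**
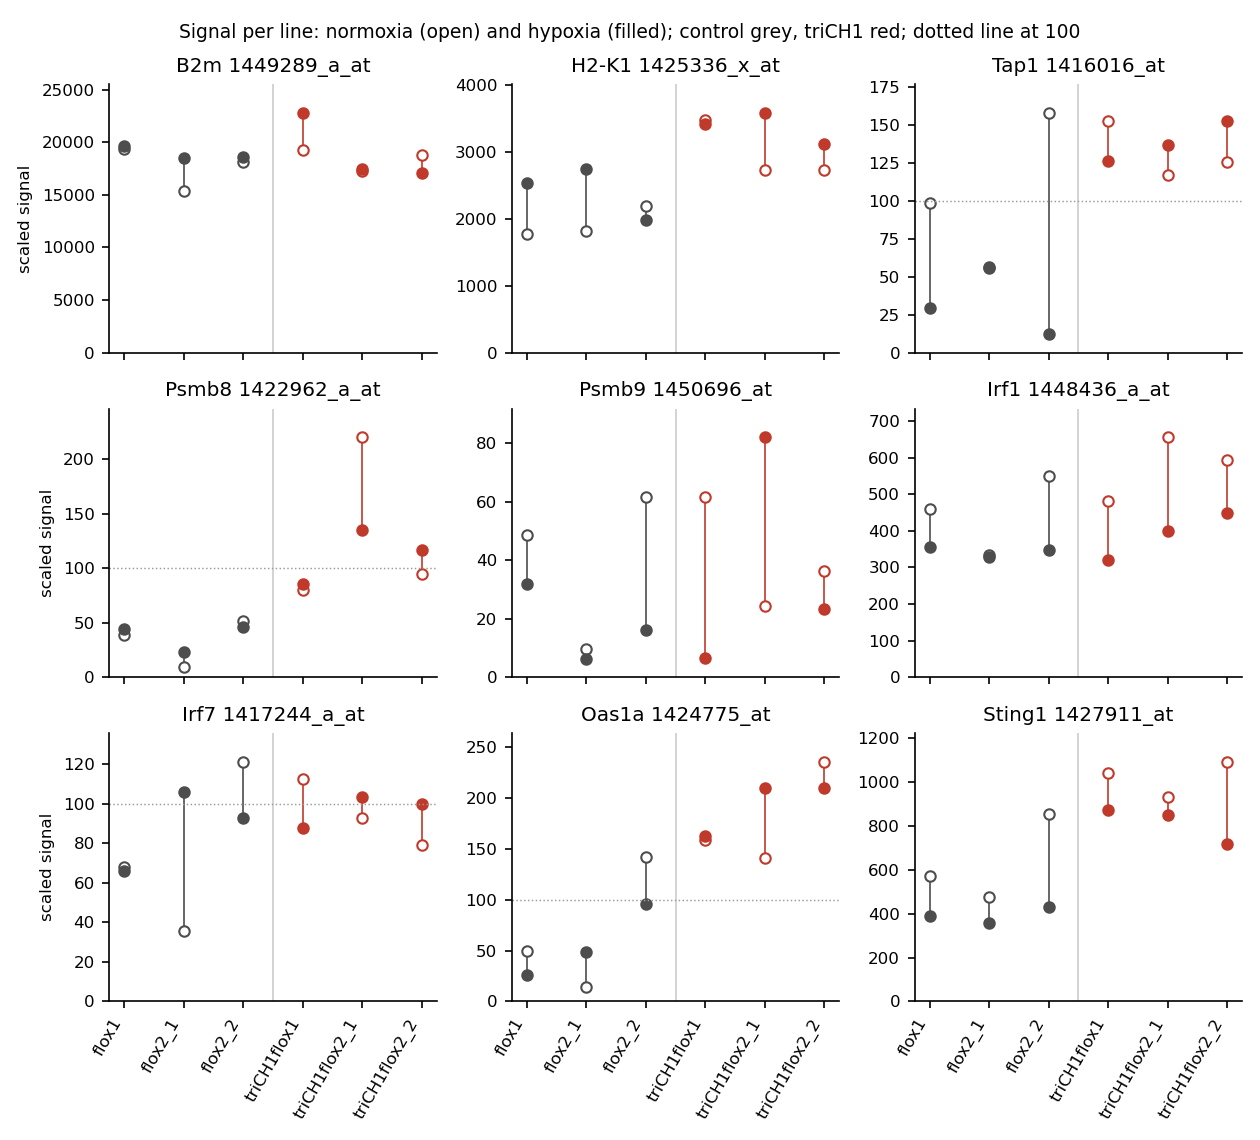
Scaled signal (linear scale, vertical axis from 0) of 1 probe set of each of the 9 genes, the one with the highest mean, in each line; open circles are normoxia, filled circles hypoxia, grey control and red triCH1, and the dotted line marks a signal of 100. B2m lies between 15389 and 22779 in both line types, whereas in both Oas1a and H2-K1 the lowest triCH1 value (141 and 2738) stands close to the highest control value (142 and 2747).

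B2m, the light chain, was the member with the smallest spread between lines. In lines flox1, flox2_1 and flox2_2, in that order here and below, probe set 1449289_a_at gave 19381, 15389 and 18120 in normoxia and 19693, 18525 and 18616 in hypoxia. In lines triCH1flox1, triCH1flox2_1 and triCH1flox2_2, also in that order below, it gave 19226, 17267 and 18770 in normoxia and 22779, 17480 and 17069 in hypoxia. The groups overlapped in every comparison, and the highest and lowest arrays were triCH1flox1 in hypoxia and flox2_1 in normoxia. On line means the log2 difference, triCH1 minus control, was 0.03 ± 0.10 (SE, n = 3 lines each) with a 95% interval of -0.20 to 0.27 (limma, adjusted p = 0.956). The second probe set, 1452428_a_at, gave 0.04 ± 0.10, with an interval of -0.20 to 0.28. A difference of more than 0.28 log2 units between line types thus lay outside both intervals. The sign is not fixed at this size, since it turned with centring on the array median (-0.01 for the first probe set).

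H2-K1, the heavy chain, was read by 3 tested probe sets, all with the _x_at suffix that the manufacturer gives to probes that can match other transcripts. Class I heavy chain genes are near copies, so these signals may hold RNA of other class I genes. The brightest, 1425336_x_at, gave 1773, 1818 and 2201 in control normoxia and 2544, 2747 and 1979 in control hypoxia. In the triCH1 lines it gave 3474, 2738 and 2738 in normoxia and 3415, 3585 and 3117 in hypoxia. Within either oxygen level every triCH1 line lay above every control line. The group means were 1930 ± 235 and 2984 ± 425 in normoxia and 2423 ± 398 and 3372 ± 237 in hypoxia (SD, n = 3), control first. On line means the log2 difference was 0.55 ± 0.12, a 1.47-fold higher level in triCH1 lines (limma, adjusted p = 0.235). Probe set 1427746_x_at, with signals of 221 to 406.2 in control and 307 to 529 in triCH1 cultures, gave 0.40 ± 0.15 (adjusted p = 0.446). Probe set 1451931_x_at, with 1060 to 1523 and 1103 to 1567, gave 0.18 ± 0.14 (adjusted p = 0.714), or 0.28 without triCH1flox2_1, and its line means overlapped. The 3 probe sets thus had the same sign and differed in size. The fourth, 1450534_x_at, was low, ranged from 4.5 to 173 and gave -0.25 with an exact permutation p of 0.7.

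Tap1, the transporter subunit, lay near the limit of 100 with its only tested probe set, 1416016_at. It gave 98.5, 56.1 and 158 in control normoxia and 29.5, 55.5 and 12.2 in control hypoxia. In the triCH1 lines the signals were 153, 117 and 125 in normoxia and 126, 137 and 153 in hypoxia. The 3 control lines at hypoxia were thus the lowest arrays, with flox2_1 as low in normoxia, and the triCH1 lines kept within 117 to 153 throughout. Line means differed by 1.02 ± 0.22 log2 units, 2.03-fold (limma, adjusted p = 0.237). In hypoxia alone the difference was 1.68 ± 0.38 (adjusted p = 0.183), and there the groups did not overlap, whereas in normoxia the highest array was a control line. Because the signals are low, the size depends on the pseudocount added before logs: with 1 in place of 20 the line mean difference was 1.37, and with 100 it was 0.53. The other 3 Tap1 probe sets had means of 9.69 to 16.7 and are not informative about the gene.

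Psmb8, an immunoproteasome subunit, was low by the rule, with a mean of 78.7 on 1422962_a_at. Its signals were 38.4, 9.3 and 51.9 in control normoxia and 43.8, 23.3 and 46.0 in control hypoxia. In the triCH1 lines they were 79.9, 220 and 94.5 in normoxia and 85.4, 135 and 117 in hypoxia. The lowest triCH1 array, at 79.9, stood above the highest control array, at 51.9. The difference of line means was 1.35 log2 units, 2.55-fold, and its exact two-sided permutation p over the 20 assignments of lines was 0.1, the smallest that 3 against 3 lines allow. Without the filter, the limma fit over all 45037 probe sets gave it an adjusted p of 0.42. As with Tap1, the size moved with the pseudocount, to 1.85 with 1 and 0.69 with 100. The second Psmb8 probe set, 1444619_x_at, read 2.4 to 46.8 and gave 0.33 (exact permutation p = 0.2).

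Psmb9, the partner subunit whose gene faces Tap1, read 48.5, 9.6 and 61.4 in control normoxia and 31.9, 6.2 and 16.1 in control hypoxia with 1450696_at. In the triCH1 lines it read 61.7, 24.2 and 36.1 in normoxia and 6.4, 81.9 and 23.4 in hypoxia. All 12 values were under 100 and the line types overlapped, with a difference of line means of 0.26 log2 units (exact permutation p = 0.7). That sign turned to -0.09 without line flox2_1. The Psmb9 values thus do not separate the line types.

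Irf1, the interferon regulatory factor that acts on class I genes, was read by 1448436_a_at. It gave 461, 333 and 550.4 in control normoxia and 357, 329 and 347 in control hypoxia. The triCH1 lines gave 482, 656 and 593 in normoxia and 320.2, 399 and 449 in hypoxia. Line types overlapped at both oxygen levels, and the line mean difference was 0.26 ± 0.18 log2 units (limma, adjusted p = 0.676), or 0.15 without line flox2_1. Irf7, the factor that amplifies type I interferon, was low, with 67.8, 35.6 and 121 in control normoxia and 65.8, 106 and 92.8 in control hypoxia. Its triCH1 values were 112, 92.8 and 79.1 in normoxia and 87.7, 103 and 99.6 in hypoxia, inside the range of the control values. The exact permutation p of its line mean difference of 0.25 was 0.4, and that difference was 0.14 without flox2_1 and 0.44 without flox2_2.

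Oas1a, the antiviral synthetase whose window holds both motifs, had the widest spread between lines of all the tested members. Probe set 1424775_at gave 49.3, 14.1 and 142 in control normoxia and 26.2, 48.2 and 95.3 in control hypoxia. The triCH1 lines gave 158, 141 and 235 in normoxia and 163, 210.1 and 209.9 in hypoxia. Line flox2_2 was the control line nearest to the triCH1 lines, and its normoxic array (141.7) passed the lowest triCH1 array (141.1) by less than 1 unit. Group means were 68.4 ± 65.9 and 178 ± 50.2 in normoxia and 56.6 ± 35.3 and 194 ± 27.3 in hypoxia (SD, n = 3), control first. On line means the log2 difference was 1.50 ± 0.39, 2.83-fold (limma, adjusted p = 0.294). With a pseudocount of 100 it was 0.86, and in normoxia alone, where the full difference was 1.42 ± 0.49, it was 0.88 without line flox2_1. The SD of its 6 line means, 0.98 log2 units, stood at the 99.1 percentile of all tested probe sets, whose median SD was 0.23.

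Sting1, the adaptor of cytosolic DNA sensing, gave concordant values with both probe sets. Probe set 1427911_at read 574, 476 and 857 in control normoxia and 391, 356 and 429.9 in control hypoxia. In the triCH1 lines it read 1040, 934 and 1093 in normoxia and 872, 851 and 720.1 in hypoxia. At each oxygen level every triCH1 line lay above every control line, and flox2_2 in normoxia was the only control culture within the triCH1 range. The line mean difference was 0.86 ± 0.17 log2 units, 1.82-fold (limma, adjusted p = 0.219). In hypoxia alone it was 1.02 ± 0.20 (limma, adjusted p = 0.121), the smallest adjusted p of any member in the 6 comparisons, and in normoxia 0.71 ± 0.20 (adjusted p = 0.375). The hypoxia difference passed the threshold in the fit with the floxed gene as a covariate (adjusted p = 0.0389), while its other alternatives reached up to 0.587. Probe set 1447621_s_at, at 313 to 576 in control and 530.0 to 789 in triCH1 cultures, gave 0.70 ± 0.17 on line means (adjusted p = 0.255).

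**Figure D2:**
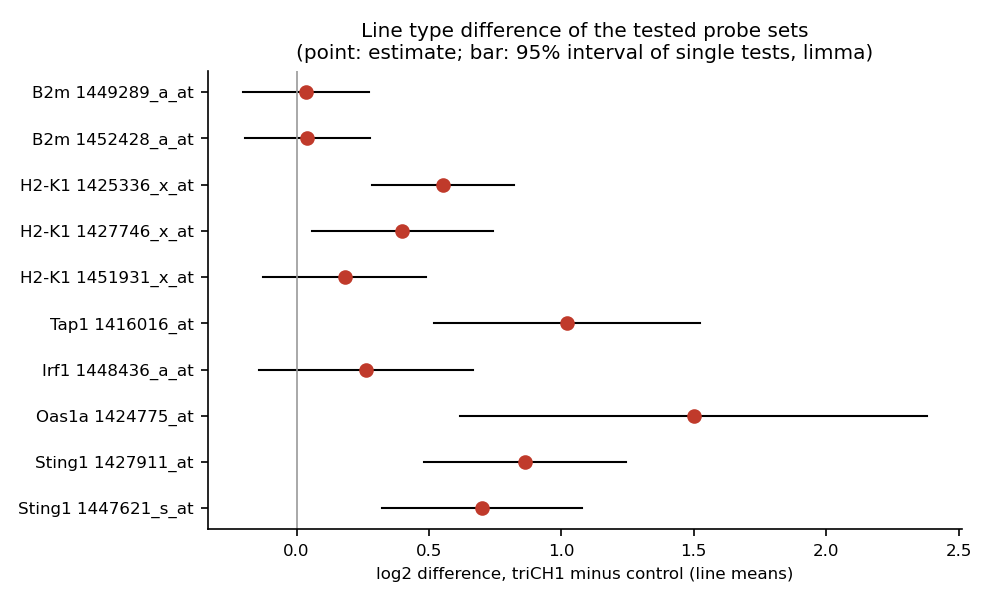
Log2 difference, triCH1 minus control, of the 10 tested member probe sets on line means (n = 3 lines each); points are limma estimates and bars 95% intervals of single tests, not adjusted for the 18903 tests. The bars of Tap1, Oas1a, both Sting1 probe sets and H2-K1 1425336_x_at and 1427746_x_at lie above 0, and those of B2m, Irf1 and H2-K1 1451931_x_at cross it.

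Counted by oxygen level, triCH1 lay wholly above control in 4 of 10 member probe sets in normoxia, against 6.18% of all tested probe sets, and in 5 of 10 in hypoxia, against 7.1%. Limma called 0 members in either comparison, where it called 0.00529% and 0.0741% of all probe sets. At an unadjusted p under 0.05 it had 4 member probe sets higher in normoxia (3.73% of all) and 5 in hypoxia (4.16%), both of Sting1 among them each time. Oas1a was also among them each time and Tap1 in hypoxia, and both passed the filter only through the triCH1 lines. In 3 of 10 probe sets, H2-K1 1425336_x_at and both of Sting1, the line types were apart at both oxygen levels, against 1.6% of all. Under the rule of 100 in each line type, the line types were apart in 4 of 8 member probe sets in normoxia and in 3 of 8 in hypoxia, against 6.09% and 7.01% of all. At an unadjusted p under 0.05 (limma), 3 of 8 were then higher in normoxia and 3 of 8 in hypoxia, against 3.63% and 4.08%. With all 6 arrays of each type pooled, 0 of 10 were apart, against 0.661%. The 2 comparisons use different arrays of the same lines and are not independent of each other.

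Other properties of the lines were set beside line type. Summed epithelial marker signal was 366 to 558 in control and 286 to 951 in triCH1 cultures, while leukocyte sums overlapped at 715 to 1147 and 820 to 1041, and endothelial sums at 101 to 224 and 135 to 235. Fibroblast sums overlapped too, at 127671 to 171071 in control and 118095 to 158548 in triCH1 cultures. Of 10 fibroblast markers 4 had a positive and 6 a negative line mean difference, with a median of -0.07. At an unadjusted p under 0.05, 2 were higher and 2 lower (limma), against 5.13% and 4.7% of all tested probe sets. Thy1 had a difference of -1.06 ± 0.21 log2 units, Lum one of 1.91 ± 0.78 and Dcn one of 1.83 ± 0.54 (limma, 0 called). These 3 were named after their values were seen. Dcn passed the filter only through the triCH1 lines, and the filter favours the direction it shows. Xist was above the Y-linked Eif2s3y in 1 control line and 2 triCH1 lines. The part of any of these in the differences between line types was not tested.

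Hypoxia for 6 h gave no call among these genes. Irf1 and both Sting1 probe sets read lower in hypoxia than in normoxia in every line, and Tap1 read lower by more than 1 log2 unit in flox1 and flox2_2 only. Limma called 0 of 10 member probe sets in control lines, where it called 0.831% of all, and 0 of 10 in triCH1 lines, where it called 0.635%. With each line as a block the calls over all probe sets were 264 in place of 157 and 189 in place of 120. Member probe sets called were still 0 of 10 in both. At an unadjusted p under 0.05, 2 member probe sets were lower in control lines (Tap1 and Sting1 1427911_at, against 2.99% of all). In triCH1 lines 1 was lower (Irf1, against 3.02%). The hypoxic arrays lay wholly below the normoxic ones for the same 2 probe sets, Tap1 and Sting1 1427911_at, in control lines, against 6.97% of all. In triCH1 lines they did so for Irf1 and both Sting1 probe sets, against 6.21%.

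For Irf1 the log2 difference, hypoxia minus normoxia, was -0.35, -0.02 and -0.64 in the 3 control lines and -0.56, -0.69 and -0.39 in the 3 triCH1 lines. Flox2_1 was the line with almost the same signal at both oxygen levels (333 and 329). The mean difference was -0.34 ± 0.21 in control lines (limma, adjusted p = 1) and -0.54 ± 0.21 in triCH1 lines (adjusted p = 0.652). For Sting1 (1427911_at) it was -0.53, -0.40 and -0.96 in control lines and -0.25, -0.13 and -0.59 in triCH1 lines. The Sting1 mean was -0.63 ± 0.20 in control lines (adjusted p = 0.403) and -0.32 ± 0.20 in triCH1 lines (adjusted p = 0.916). The second Sting1 probe set was lower in 6 of 6 lines too, by means of -0.33 ± 0.21 and -0.37 ± 0.21. These means depend on single lines and arrays. Without flox2_2 the control mean of the second Sting1 probe set was -0.09 and that of Irf1 -0.19, and without the normoxic array of flox2_1 they were -0.56 and -0.53. The control mean of 1427911_at was -0.40 without the normoxic array of flox2_2, and its triCH1 mean was -0.19 without triCH1flox2_2. A lower signal in all 6 lines was seen in 3 of 10 member probe sets (that of Irf1 and both of Sting1) and in 7.23% of all tested probe sets.

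Among the tested probe sets, that of Tap1 (1416016_at) had hypoxia values that differed most among lines. The log2 difference was -1.26 in flox1, -0.01 in flox2_1 and -2.46 in flox2_2, and -0.24, 0.19 and 0.25 in the triCH1 lines. The mean in control lines was -1.24 ± 0.38 (limma, adjusted p = 0.321), and without flox2_2 it was -0.64. The difference in response, triCH1 minus control, was 1.31 ± 0.53 (limma, adjusted p = 1), or 0.70 without flox2_2. For this comparison limma called 0 of 10 member probe sets and 0% of all, with 1 member probe set and 0.693% of all at an unadjusted p under 0.05. That 1 was Tap1, which passed the filter only through the triCH1 lines. Under the rule of 100 in each line type, 0 of 8 member probe sets had such a p, against 0.335% of all in each direction. These Tap1 signals ranged from 12.2 to 157.6, with a mean of 101.6, close to the limit of 100. The leukocyte marker sum averaged 779 in control hypoxia (715 to 875) and 1019 in control normoxia (873 to 1147), ranges that narrowly overlapped. Only 4 of its 13 markers had a mean of at least 100, so it holds much low signal. Its part in the Tap1 values was not tested.

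**Figure D3:**
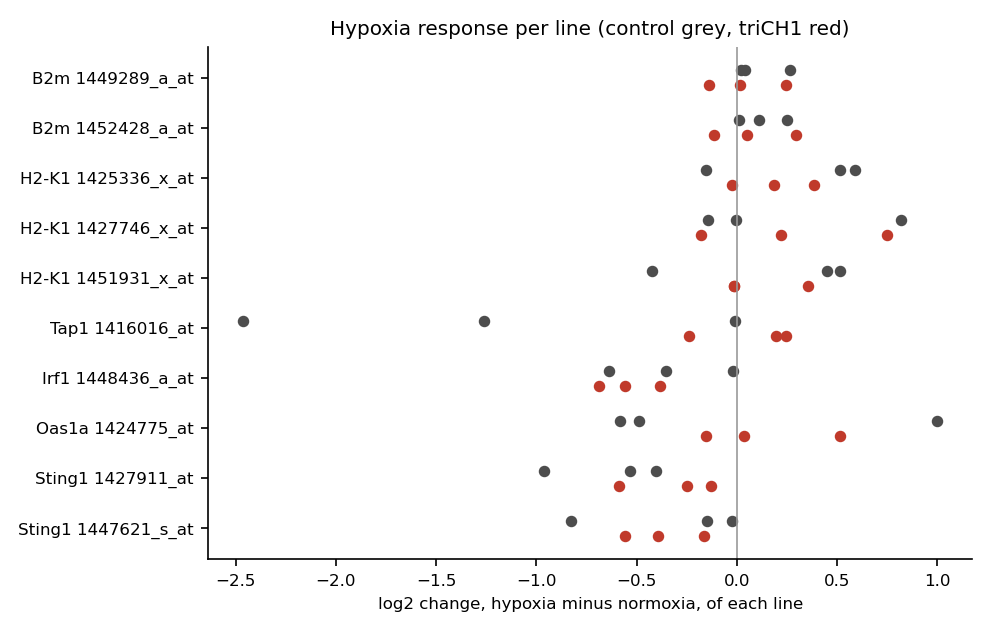
Log2 difference, hypoxia minus normoxia, of each tested member probe set in each line (grey control, red triCH1; 1 culture at each oxygen level per line, so a point has no error of its own). Irf1 and both Sting1 probe sets lie below 0 in all 6 lines, and Tap1 spreads from -2.46 to 0.25.

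The class I chains and Oas1a had hypoxia differences of both signs among the lines. The means of all tested B2m and H2-K1 probe sets were positive in both line types, from 0.04 to 0.32 log2 units, and none was called. B2m (1449289_a_at) differed by -0.14 to 0.27 log2 units, with a positive value in 5 of 6 lines. H2-K1 (1425336_x_at) was positive in 4 of 6 lines, with a mean of 0.32 ± 0.16 in control (limma, adjusted p = 0.933) and 0.18 ± 0.16 in triCH1 lines (adjusted p = 0.941). These means depend on single lines: the control mean was 0.18 without flox2_1 and 0.55 without flox2_2, and the triCH1 mean was 0.08 without triCH1flox2_1 and 0.29 without triCH1flox1. Oas1a differed by -0.58 to 1.00, positive in 3 lines and negative in 3, and the 1.00 of flox2_1 came from signals of 14.1 and 48.2. Psmb8, Irf7 and Psmb9 were low in both conditions. Their differences spread widely at these signals, from -0.63 to 0.56 for Psmb8 (1422962_a_at), from -0.32 to 1.18 for Irf7 and from -1.63 to 1.21 for Psmb9.

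The order of the 4 groups differed between genes. Sting1 (1427911_at) ran from control hypoxia (392 ± 37.1) through control normoxia (636 ± 198) and triCH1 hypoxia (814 ± 82.3) to triCH1 normoxia (1022 ± 81.0, SD, n = 3 each). Control normoxia and triCH1 hypoxia, the neighbours in the middle, overlapped through flox2_2, and the other neighbours did not overlap. Irf1 ran from control hypoxia (344 ± 14.0) through triCH1 hypoxia (390 ± 65.1) and control normoxia (448 ± 109) to triCH1 normoxia (577 ± 88.3), and each group overlapped the next in that order. H2-K1 (1425336_x_at) had both triCH1 groups above both control groups, with triCH1 hypoxia highest, and control hypoxia and triCH1 normoxia met at 2747 and 2738. For B2m the 4 group means, 17630 to 19109, all lay within 1 SD of the widest group (3185).

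Across the 12 arrays the members did not follow a common course. The pair of Sting1 probe sets correlated at r = 0.94 and the pair of B2m probe sets at r = 0.94, which describes how well 2 readings of 1 gene match here. Sting1 (1427911_at) correlated with Tap1 at 0.84, with Oas1a at 0.82 and with Irf1 at 0.70, whereas B2m (1449289_a_at) correlated with Tap1 at 0.02 and with H2-K1 at 0.31. The arrays share lines, line type and oxygen level, so these values are descriptions without a test. The genes most like each member by Pearson r were, for Sting1, Rbm14 (0.95), Dtymk (0.95) and Fbl (0.94), and for Irf1, Gart (0.94), Ccne1 (0.93) and Adsl (0.92). For Oas1a they were Cdca3 (0.92), Cotl1 (0.91) and Ifitm3 (0.91), the last of them another interferon-stimulated gene. For Tap1 they were Mtg2 (0.92), Chmp6 (0.90) and Prpf4 (0.89), for H2-K1, Bmyc (0.92), Emp2 (0.87) and Echs1 (0.87), and for B2m, Rhoc (0.93), Rab34 (0.93) and Bok (0.92).

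The other genes of these pathways were taken by list, with each gene given by its brightest probe set. No gene of any list was called in any of the 6 comparisons, so the values below are on line means and did not pass the test (limma). Of 14 tested antigen presentation genes 11 had a positive difference, triCH1 above control, with a median log2 difference of 0.13 against 0.03 over all tested probe sets, and 4 had an unadjusted p under 0.05, all higher. Over all tested probe sets 55% had a positive difference and 5.13% were higher at that p. Those 4 genes, named after their values were seen, were Tap2, the other transporter subunit (0.96 ± 0.23, adjusted p = 0.249), Tapbp, which bridges transporter and class I molecules (0.49 ± 0.15), Psme1, a proteasome activator subunit (0.38 ± 0.12), and Erap1, which trims peptides (0.84 ± 0.31). Tap2 gave group means of 112 ± 22.7 and 112 ± 27.8 in control lines and 245 ± 47.5 and 231 ± 48.6 in triCH1 lines (SD, n = 3, normoxia first). The general folding factors of the list, Pdia3 (0.00 ± 0.08), Calr (-0.07 ± 0.10) and Canx (-0.14 ± 0.09), stayed close to 0. The 7 constitutive proteasome beta subunits had a median of -0.01 and 0 with an unadjusted p under 0.05, and the brightest were Psmb7 (-0.02 ± 0.11), Psmb4 (0.13 ± 0.11) and Psmb5 (0.00 ± 0.15).

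Interferon genes themselves read low. The 6 interferon genes analysed, Ifnb1, Ifna5 and Ifna1 among them, read 2.2 to 93.8 on all arrays and 0 passed the filter. Of 13 tested receptor and signalling genes 9 had a positive difference with a median of 0.15, and Irf9, named after its values were seen, was the 1 with an unadjusted p under 0.05 (0.54 ± 0.19, adjusted p = 0.415). These shares are near those of all tested probe sets, of which 55% were positive and 5.13% higher at that p. The brightest of them were Jak1 (0.15 ± 0.17), Ptpn2 (0.20 ± 0.15) and Ifngr2 (-0.45 ± 0.25). The other interferon regulatory factors were Irf3 (0.24 ± 0.14), Irf2 (0.12 ± 0.19) and Irf5 (0.19 ± 0.29). Of 8 tested nucleic acid sensing genes 5 had a positive difference with a median of 0.06, and 0 had an unadjusted p under 0.05, which is also near the share of all. Among them were Tbk1, the kinase downstream of Sting1 (0.05 ± 0.13), Samhd1 (0.07 ± 0.15) and Mavs (-0.16 ± 0.17), and cGAS itself (Cgas, named after its value was seen) gave 0.67 ± 0.34 (adjusted p = 0.561).

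Of 56 further interferon-stimulated genes with a probe set 27 were tested, and 21 of these had a positive difference (55% of all tested probe sets did) with a median of 0.13. At an unadjusted p under 0.05, 8 were higher and 1 lower, beside 5.13% and 4.7% of all tested probe sets. The brightest was Ifitm3, a membrane protein that hinders virus entry, at 8491 ± 2672 and 8016 ± 2119 in control and 12038 ± 1965 and 11371 ± 1664 in triCH1 lines (SD, n = 3, normoxia first). Its line mean difference was 0.53 ± 0.20 (limma, adjusted p = 0.441). Ifitm2 (0.12 ± 0.10) and Ly6e (0.02 ± 0.20) were nearer to 0. Bst2, which tethers virus particles (0.87 ± 0.29), and Nmi (0.77 ± 0.25) were among the higher ones, and Ifit3 was the lower one (-0.53 ± 0.22); these 3 were named after their values were seen.

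**Figure D4:**
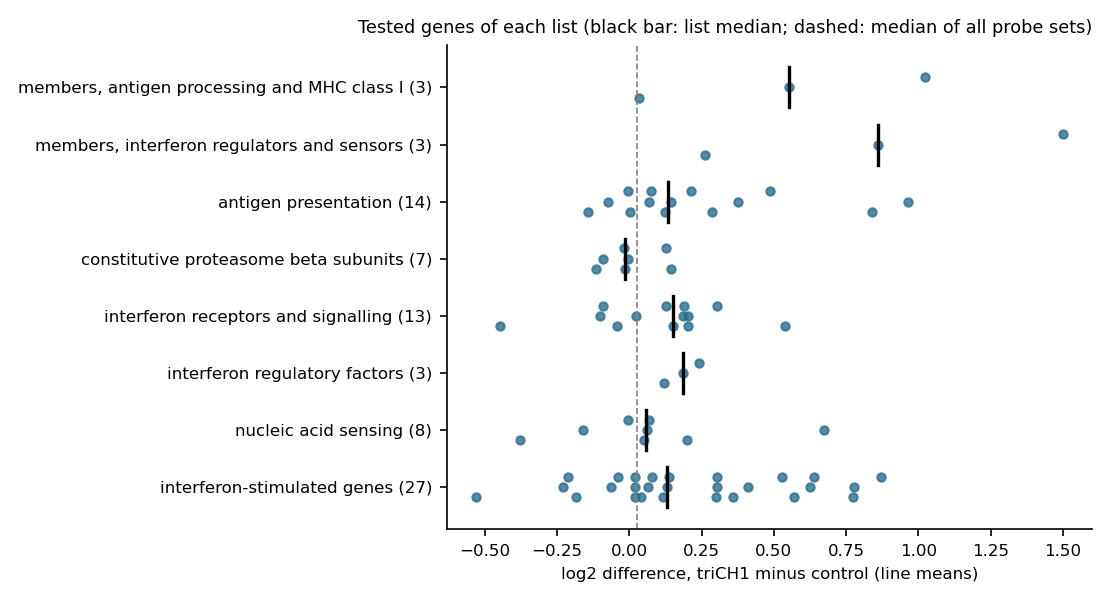
Log2 difference, triCH1 minus control on line means (n = 3 lines each), of every tested gene in each list by its brightest probe set; a point is a gene, the black bar the list median and the dashed line the median of all tested probe sets (0.03), with the number tested in brackets. Constitutive proteasome subunits stay within -0.11 to 0.15, and interferon-stimulated genes spread from -0.53 to 0.87.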

How the data were processed

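RNA of 12 cultures was hybridised to Affymetrix Mouse430_2 arrays (biotin label, 1 colour). The deposited values are intensities on a linear scale, which the authors made with Affymetrix's Statistical algorithm, each array scaled to 500, per the labels. The mean of each array without its lowest and highest 2% was 500, as checked on the values. Software version and other steps are not given in the sources used here. The precision is limited by 3 arrays per group.

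The table holds 45101 probe sets, 64 of them controls. Per the array's annotation, 34945 had 1 symbol, 932 several and 9160 none listed. Of these, 18903 had a mean signal of 100 or more and were tested as log2(signal + 20) in limma 3.58.1 (R 4.3.3), with 1 mean per group and a trended variance prior (lmFit, eBayes). A further fit used 6 line means. Tests were two-sided, with Benjamini-Hochberg adjusted p under 0.05 over all tested probe sets as the call. The fits were also run on simulated arrays that had no line effect. That outcome is not reported here and bears on no result above. Single members were also compared by an exact permutation test over 20 assignments of lines.

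Members and gene lists were chosen with earlier results of these data known. Named were all member probe sets, called genes of each list, its 3 genes with the highest mean and, for each member, the 3 genes with the highest r; other names are marked as chosen after their values were seen. Normoxia and hypoxia arrays of a line share the line name in the titles. For hypoxia against normoxia they were paired only in the fit with line as a block, and the main fit left the pairing out. After removal of group means, the pair correlations were 0.47 in flox1, 0.28 in flox2_1, -0.02 in flox2_2, 0.54 in triCH1flox1, 0.58 in triCH1flox2_1 and 0.35 in triCH1flox2_2. Line as a block, omission of each array and of each line, 1 value per gene, the floxed gene as a covariate and the Ep300-floxed lines alone were tried as alternatives. So were centring on array medians, quantile normalization, an untrended variance, other filters (none, 200) and other pseudocounts (1, 100). Promoter windows came from RefSeq (GRCm38.p6). No promoter window of Sting1 and no protein sequences were used here.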

Additional observations from a re-analysis of the deposited data

How the results depend on the processing

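The count of members called stayed at 0 in each of the 6 comparisons under every alternative run except the floxed gene as a covariate, under which 1 member, Sting1 1427911_at, was called for triCH1 against control in hypoxia. That difference was 1.02 ± 0.20 log2 units in both fits, with an adjusted p (limma) of 0.0389 in place of 0.121, and the cause was not tested. A mean of at least 100 in each line type, an alternative chosen after seeing the data, left 8 member probe sets and 0 calls. With line as a replicate block, which pairs the 2 arrays of a line, 0 members were called in each of the 5 comparisons fitted, and all 25 member differences refitted kept their direction and side of the threshold. Of 939 recomputed values of 38 reported member differences, 931 kept both, 1 passed the threshold and 7 turned sign. These were the B2m line mean differences with centring on the array median (-0.0097 for 1449289_a_at and -0.0038 for 1452428_a_at), the same values without a line (ranges -0.0479 to 0.0862 and -0.0280 to 0.116, below 0 without flox2_1 and without triCH1flox1), and that of Psmb9 without flox2_1 (range -0.0856 to 0.464). Low signals limit Tap1, Psmb8, Oas1a, Irf7 and Psmb9, whose sizes move with the pseudocount. The median of all probe sets moved by less than 0.1 log2 units under either scaling.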
